A study of Mus musculus with 2 samples.

Results

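The 5 mouse DNA methyltransferase genes on these arrays were Dnmt3l, Dnmt3a, Dnmt3b, Dnmt1 and Dnmt2, and they were followed through the 12 non-control probes that carry those names, of 42404 such probes in all. Dnmt3a and Dnmt1 had 3 probes each, and Dnmt3l, Dnmt3b and Dnmt2 had 2 each. The probes were taken by gene name alone, but the genes were chosen with earlier results of these data known. The question for these genes was whether any of them differed in copy number between offspring of a Dnmt3L+/- sire and control animals, in particular Dnmt3l, the gene that the sire carried in a single working copy.

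The data were 2 hybridisations by array comparative genomic hybridisation, in which genomic DNA of 2 sources, each in its own dye, competes for the same probes, so that the ratio of the 2 signals follows the ratio of copy number. For the adult array, tail DNA came from adult female Dnmt3L+/+ offspring of a Dnmt3L+/- sire (Cy3) and from adult female Dnmt3L+/+ animals of an unrelated C57BL/6 colony as controls (Cy5). For the embryo array, DNA of whole E10.5 embryos came from female Dnmt3L+/+ offspring of a Dnmt3L+/- sire (Cy5) and from female Dnmt3L+/+ embryos of a control cross (Cy3). The animals on both sides of each array were thus labelled wild type at Dnmt3L, and the sires, described in the series as Dnmt3L+/- or Dnmt3L+/+, were not hybridised themselves. The adult animals were labelled C57BL/6, while the embryo labels give C57BL/6 in one place and (FVB/NJ x C57BL/6)F1 in another, which leaves the strain unsettled. Each stage had 1 array with no replicate. The number of animals behind each DNA, any pooling, and the part of Dnmt3L missing from the mutant allele were looked for and not given in the sources used here.

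DNA methyltransferases place methyl groups on cytosines, mostly where a guanine follows. Dnmt3a and Dnmt3b set new methylation patterns, in germ cells and in the early embryo, and Dnmt1 copies existing patterns onto the new strand after DNA replication. Dnmt3l has no catalytic activity of its own: it binds Dnmt3a and Dnmt3b, raises their activity, and is needed in germ cells for methylation of maternal imprints and, in the male line, of retrotransposons. Dnmt2, now named Trdmt1, shares the fold of the family but methylates transfer RNA. Rodents hold a further gene, Dnmt3c, which acts on retrotransposons in male germ cells and arose from a copy of Dnmt3b, and no probe carried its name.

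Processed signals, the scanner software's background-subtracted and dye-normalised spot brightness in its own units, were turned into log2 ratios of offspring over control and centred on each array's median. A ratio of 0 thus stands for equal relative signal, and a value of at least 0.3 in either direction was counted as past the limit. The software's own error of each spot accompanies the signals and ratios below after the ± sign and covers that spot only, not the spread between animals. Of all probes, 97.3% (adult) and 99.8% (embryo) were well above background in the offspring channel, and 98.8% and 99.9% in the control channel. Median background-subtracted signals were 40.8 in offspring and 56.3 in controls on the adult array, and 189 in offspring and 105 in controls on the embryo array, so the adult array was the dimmer one. The 308 probes spotted 3 times had a median SD between spots of 0.19 log2 (adult) and 0.065 log2 (embryo). Although both sides of each array were labelled female, the median of X probes was −0.86 log2 for adults (1569 probes) and −0.86 log2 for embryos (1566 probes), and this shift is printed beside the methyltransferase genes as a yardstick. Each of the 12 methyltransferase probes was spotted once, was well above background in both channels of both arrays, and carried no saturation or outlier mark. Positions are those in the array files. No exon or intron is assigned, since their build was not named.

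Dnmt3l had 2 probes over 4.18 kb of chromosome 10, and all 4 of its ratios, 2 per array, lay within their software error of 0. Probe 1 at chr10:78168852-78168911 had an adult signal of 794 ± 111 in offspring and 710.5 ± 87.5 in controls, a log2 ratio of 0.14 ± 0.27. Probe 2 at chr10:78172970-78173029 had an adult signal of 536 ± 97.5 in offspring and 657 ± 86.9 in controls, a log2 ratio of −0.32 ± 0.32. The 2 adult probes thus lay on opposite sides of 0, and the distance between them, 0.45 log2, exceeded their combined software error of 0.42. In embryos, probe 1 had a signal of 625 ± 103 in offspring and 578 ± 78.2 in controls, a log2 ratio of 0.11 ± 0.31. Probe 2 had an embryo signal of 1341 ± 148 in offspring and 1224 ± 127 in controls, a log2 ratio of 0.12 ± 0.22. Both embryo probes lay slightly above 0 and close together.

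The median of the Dnmt3l probes was −0.089 log2 (SD over probes 0.32) on the adult array, a ratio of 0.94, and 0.12 log2 (SD 0.013) on the embryo array, a ratio of 1.08. Probe 2 was the only methyltransferase probe past the limit on the adult array, and 23.9% of all autosomal probes there lay at least as far from 0. Its call did not hold without centring, where it stood at −0.29, nor with mean signals without background subtraction (−0.0066) or with model-based background correction of the mean signals, named normexp (−0.059). The 4 Dnmt3l values, −0.32 to 0.14, were all above the X medians.

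**Figure D1:**
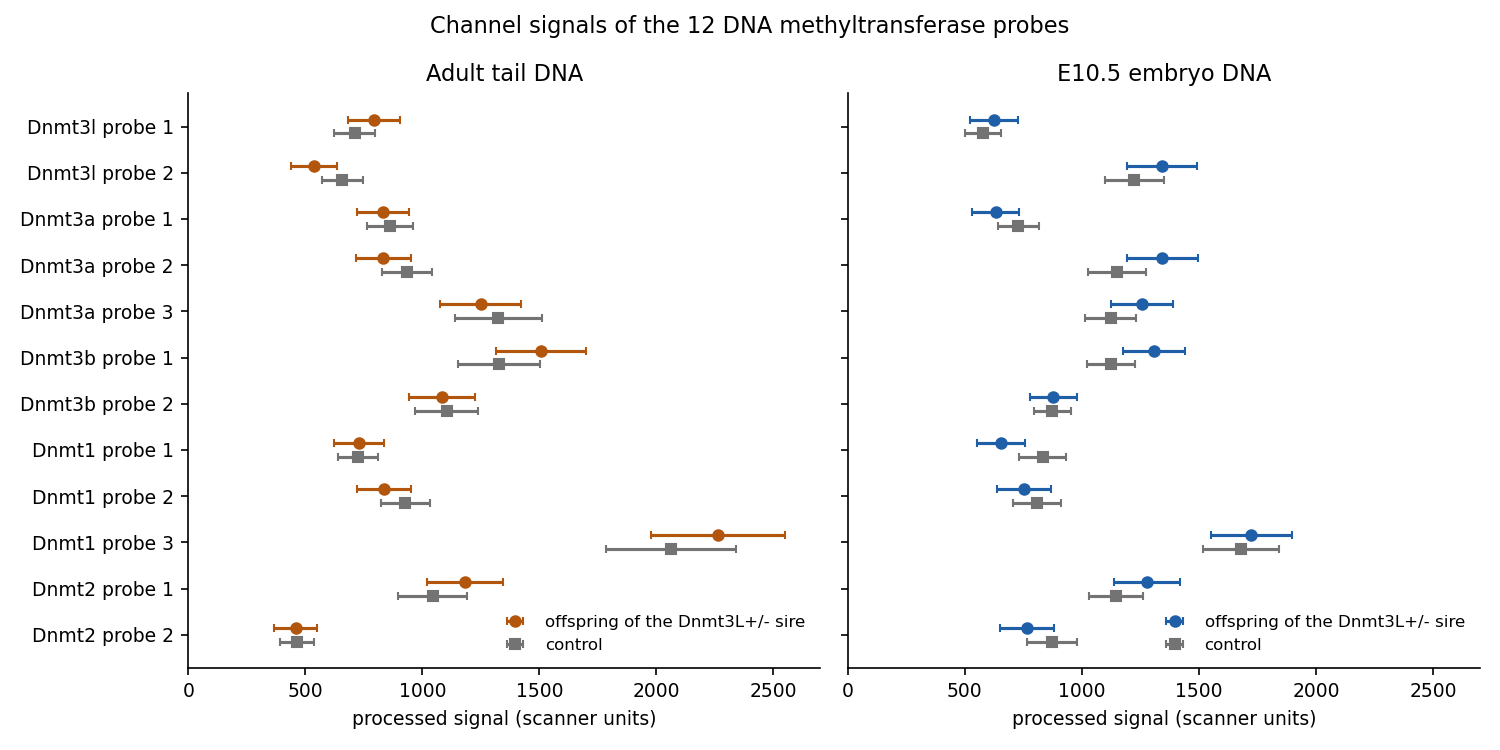
Processed signals (horizontal axis, scanner units) of the 12 DNA methyltransferase probes in offspring of the Dnmt3L+/- sire (coloured circles) and controls (grey squares), on the adult array (left) and the embryo array (right), with bars for the scanner software's error of 1 spot. Signals ran from 458 to 2262 in adult offspring, and Dnmt1 probe 1 in embryos, at 655 in offspring and 832 in controls, had the ratio farthest from 1.

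Dnmt3a, a de novo methyltransferase, had 3 probes over 50.1 kb of chromosome 12. At chr12:3012480-3012539, probe 1 had an adult signal of 831 ± 113 in offspring and 861 ± 98.3 in controls (log2 ratio −0.072 ± 0.26), and an embryo signal of 632 ± 99.2 in offspring and 729 ± 87.3 in controls (log2 ratio −0.21 ± 0.28). At chr12:3057602-3057661, probe 2 had an adult signal of 833 ± 116 in offspring and 934 ± 107 in controls (−0.19 ± 0.26), and an embryo signal of 1344 ± 154 in offspring and 1151 ± 124 in controls (0.22 ± 0.23). At chr12:3062541-3062599, probe 3 had an adult signal of 1249 ± 173 in offspring and 1324 ± 186 in controls (−0.11 ± 0.28), and an embryo signal of 1255 ± 133 in offspring and 1123 ± 108 in controls (0.15 ± 0.21). All 3 probes were below 0 in adults, while in embryos probe 1 was below 0 and the other 2 above it. The gene median was −0.11 log2 (SD over probes 0.059) in adults and 0.15 log2 (SD 0.23) in embryos, ratios of 0.929 and 1.11. The embryo median was 0.29 log2 with normexp, and the mean over the 3 probes in place of the median was 0.052 log2. In embryos the highest and lowest Dnmt3a probes differed by 0.43 log2, past their combined software error of 0.36.

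Dnmt3b, the other de novo enzyme, had 2 probes over 33.2 kb of chromosome 2. Probe 1 at chr2:153109609-153109668 had an adult signal of 1506 ± 192 in offspring and 1328 ± 175 in controls (log2 ratio 0.16 ± 0.26), and an embryo signal of 1307 ± 132 in offspring and 1124 ± 104 in controls (0.21 ± 0.20). Probe 2 at chr2:153142712-153142771 had an adult signal of 1083 ± 140.3 in offspring and 1103 ± 134 in controls (−0.047 ± 0.26), and an embryo signal of 877 ± 100 in offspring and 874 ± 80.4 in controls (−0.0021 ± 0.21). Probe 1 was the higher one on both arrays, and in embryos it lay just past its software error. The gene median was 0.056 log2 (SD 0.15) in adults and 0.10 log2 (SD 0.15) in embryos, ratios of 1.04 and 1.08.

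Dnmt1, the maintenance methyltransferase, had 3 probes over 34.5 kb of chromosome 9. Probe 1 at chr9:20799134-20799193 had an adult signal of 729 ± 107 in offspring and 724 ± 86.3 in controls (log2 ratio −0.013 ± 0.27), and an embryo signal of 655 ± 103 in offspring and 832 ± 98.9 in controls (−0.35 ± 0.28). Probe 2 at chr9:20817612-20817671 had an adult signal of 837 ± 115 in offspring and 927 ± 105 in controls (−0.17 ± 0.26), and an embryo signal of 752 ± 115 in offspring and 807 ± 102 in controls (−0.11 ± 0.28). Probe 3 at chr9:20833621-20833680, the brightest of the 12 probes on both arrays, had an adult signal of 2262 ± 286 in offspring and 2061 ± 277 in controls (0.11 ± 0.27), and an embryo signal of 1725 ± 174 in offspring and 1679 ± 161 in controls (0.031 ± 0.20). Each of the 3 probes had the same sign on both arrays with processed signals, but with normexp probes 1 and 3 did not. Probe 1 was the only methyltransferase probe past the limit on the embryo array, where 20.4% of autosomal probes lay at least as far from 0, and it stood 0.38 log2 below probe 3 of the same gene, past their combined software error of 0.34. The gene median was −0.013 log2 (SD 0.14) in adults and −0.11 log2 (SD 0.19) in embryos, ratios of 0.991 and 0.927.

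Dnmt2, the transfer RNA methyltransferase now named Trdmt1, had 2 probes over 8.47 kb of chromosome 2. Probe 1 at chr2:13450782-13450841 had an adult signal of 1181 ± 163 in offspring and 1044 ± 148 in controls (log2 ratio 0.16 ± 0.29), and an embryo signal of 1278 ± 139 in offspring and 1147 ± 116 in controls (0.15 ± 0.22). Probe 2 at chr2:13459195-13459254 had an adult signal of 458 ± 93.3 in offspring and 464 ± 72.8 in controls (−0.042 ± 0.37), and an embryo signal of 765 ± 114 in offspring and 873 ± 107 in controls (−0.20 ± 0.28). Probe 1 lay above 0 and probe 2 below it on both arrays. In adults this order reversed with normexp (probe 1 −0.052, probe 2 0.026) and with mean signals (probe 1 −0.080, probe 2 0.075). The gene median was 0.057 log2 (SD 0.14) in adults and −0.024 log2 (SD 0.24) in embryos, ratios of 1.04 and 0.983.

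**Figure D2:**
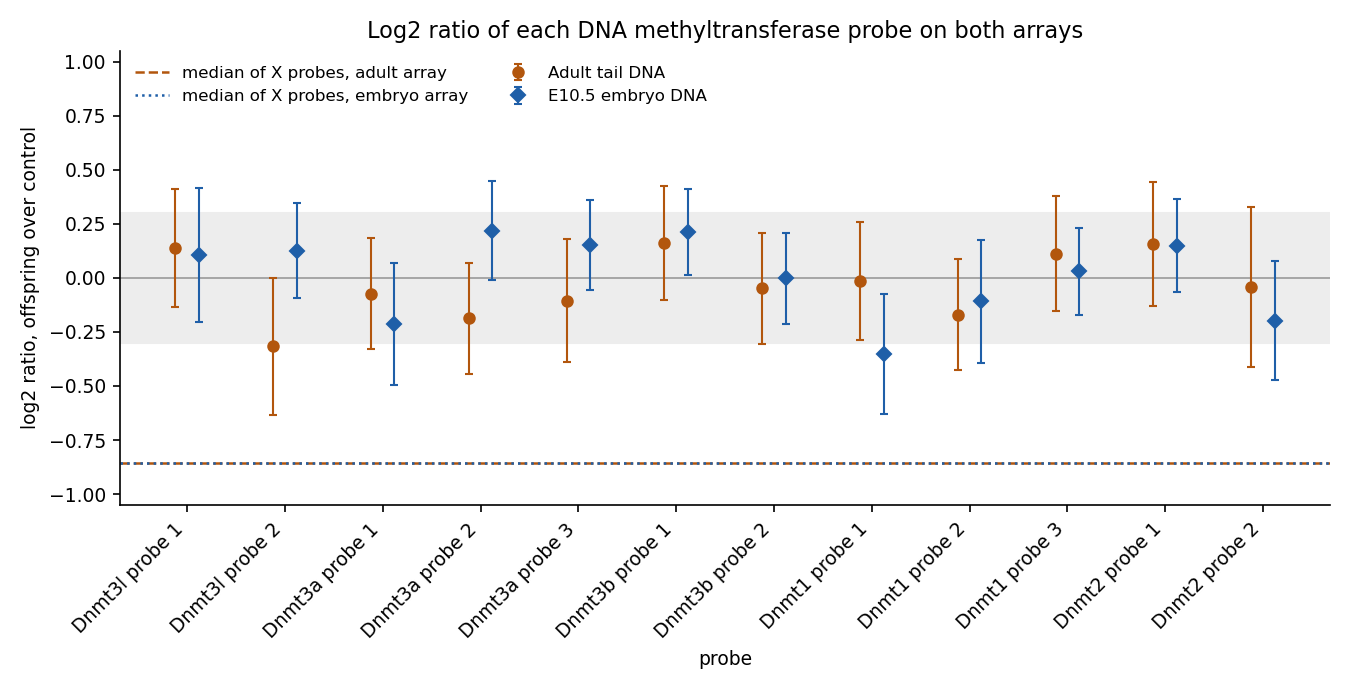
Log2 ratios of offspring over control (vertical axis) of the 12 DNA methyltransferase probes (horizontal axis) on the adult array (orange circles) and the embryo array (blue diamonds), with bars for the scanner software's error of 1 spot. The grey band marks 0.3 log2 on either side of 0, which 1 probe on each array passes, and the nearly coinciding lines near −0.86 mark the X medians.

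Over the 12 methyltransferase probes, the log2 ratio had a median of −0.045 (SD 0.15) on the adult array, with a range of −0.32 to 0.16 and 8 probes below 0. The embryo array had a median of 0.069 (SD 0.19), with a range of −0.35 to 0.22 and 5 probes below 0. On each array 1 of 12 probes was past 0.3 log2 (8.33%), against 28.4% of all adult probes and 29.1% of all embryo probes, X included. All 12 are autosomal, and among autosomal probes the shares were 25.9% (adult) and 26.6% (embryo). The count of methyltransferase probes past the limit was thus below, not above, the share among probes at large, which 12 probes can only describe.

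By the software's own error, all 12 adult ratios and 10 of 12 embryo ratios lay within 1 error of 0, the exceptions being Dnmt1 probe 1 and Dnmt3b probe 1 in embryos. The share of all probes within 1 error was not counted, so these counts describe the 12 probes only. The software also gives each spot a p-value from its error model, which compares the 2 channels of that spot and not the animals. It was under 0.05 for 0 of 12 methyltransferase probes on each array, against 5.37% of all adult probes and 11.4% of all embryo probes, X included. Their smallest software p-values were 0.354 (Dnmt3l probe 2, adult) and 0.216 (Dnmt1 probe 1, embryo). Between the highest and lowest probe of a gene on an array, 3 of 10 differences exceeded the combined software error. Those were Dnmt3l in adults and Dnmt3a and Dnmt1 in embryos, and the rest lay within it. Dnmt3a and Dnmt1 had 3 probes to take the extremes from, and the other genes 2. No such share was counted over all genes, so this count too is a description only.

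The methyltransferase probes fell within the bulk of the autosomal probes, whose SD was 0.32 log2 (adult) and 0.34 log2 (embryo). The range that the 12 probes span held 60.6% of autosomal probes and 5.67% of X probes on the adult array. On the embryo array it held 68.8% of autosomal probes and 6.83% of X probes. Of X probes, 9.50% (adult) and 8.05% (embryo) lay at or above the lowest methyltransferase probe, and 94.3% and 94.8% were past 0.3 log2 in either direction. With mean signals the X median was −0.19 in adults, and Dnmt3a probe 3 (−0.31) and Dnmt1 probe 3 (−0.24) lay below it. With normexp it was −0.28 in adults, and Dnmt3a probe 3 (−0.30) lay below it.

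**Figure D3:**
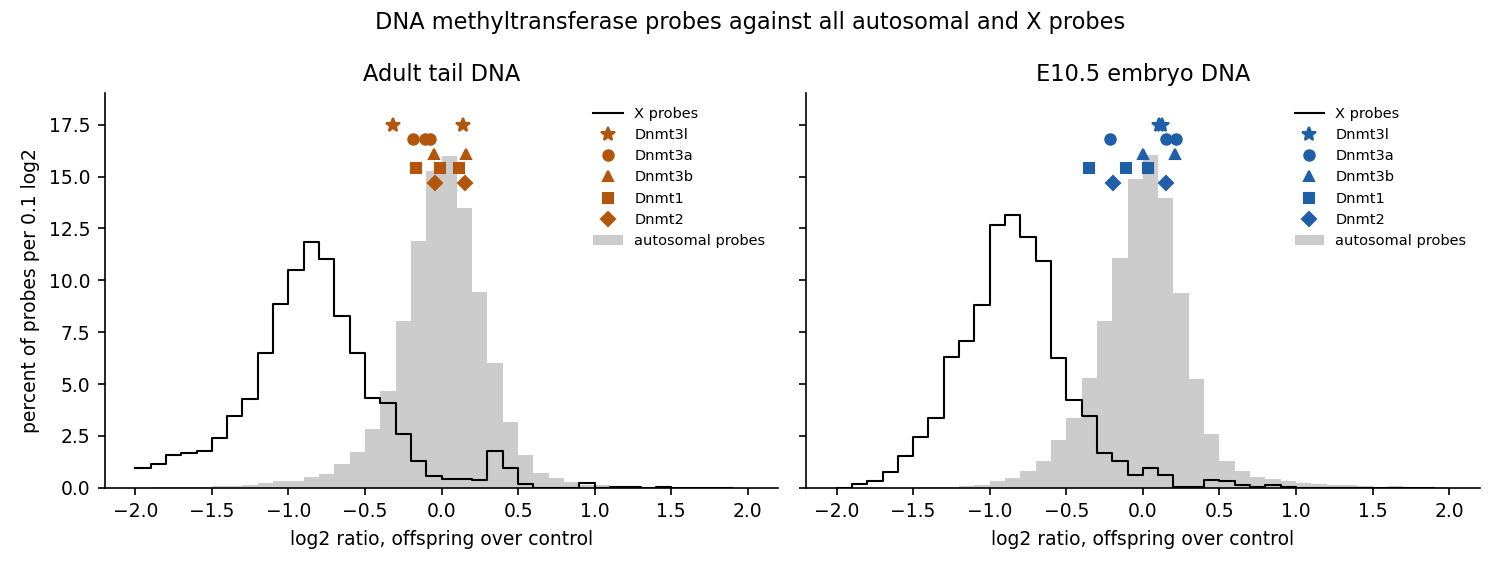
Share of probes in bins of 0.1 log2 (vertical axis, percent) by log2 ratio of offspring over control (horizontal axis) for autosomal probes (grey) and X probes (black line), with each DNA methyltransferase probe as a symbol at its own ratio. The symbols lie over the autosomal distribution on both arrays, and the X distribution is centred near −0.86.

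Both arrays were fitted together in limma, with offspring over control tested against 0 across 42362 probes measured on both. No methyltransferase probe passed an adjusted p of 0.05, and 0 of 42362 probes (0%) did, while 1920 had an unadjusted p under 0.05. The mean of both arrays was 0.12 ± 0.19 log2 (SE) for Dnmt3l probe 1, with a 95% interval of −0.34 to 0.58. For Dnmt3l probe 2 the mean was −0.096 ± 0.21 log2 (SE), with an interval of −0.60 to 0.41. Among all 12 probes the means ran from −0.18 (Dnmt1 probe 1) to 0.19 (Dnmt3b probe 1), with SEs of 0.19 to 0.21 and a smallest unadjusted limma p of 0.372. The lower interval limits lay between −0.67 and −0.28, all above the X median of −0.86, and the upper limits between 0.30 and 0.65. With 2 arrays that differ in stage, tissue, dye orientation and labelled cross, shifts as small as those of these probes were not detectable. X probes were among the 42362, so none of their shifts, with a median of −0.86, was called either. The lack of calls therefore could not separate equal copy number from a shift of that size.

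The sign of the offspring over control ratio was the same on both arrays for 9 of 12 methyltransferase probes (75%), against 15803 of 40482 autosomal probes (39.0%). The probes with opposite signs were Dnmt3l probe 2, Dnmt3a probe 2 and Dnmt3a probe 3. Across the 12 probes Pearson's r between the arrays was 0.094, and across autosomal probes it was −0.25, both given as descriptions across probes that share 2 arrays. Because offspring carried Cy3 on the adult array and Cy5 on the embryo array, the same autosomal values written as Cy5 over Cy3 correlate at 0.25. For Dnmt3l probe 2, embryo minus adult was 0.44 log2 against a combined software error of 0.39. For Dnmt3a probe 2 it was 0.40 against 0.34. For the other 10 probes the arrays differed by no more than the combined software error. How many of all probes differed by more than theirs was not counted, so this describes the 12 probes only. Stage and dye orientation cannot be told apart here.

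The nearest probes of other genes, 20 on each side, showed what surrounds each methyltransferase gene in the genome. Around Dnmt3l, which lies between Aire, the regulator of self-antigen expression in the thymus, and Icosl, a T-cell costimulatory ligand named Icoslg in the array files, 40 probes reached 445 kb to the left and 495 kb to the right. They had a median of −0.011 log2 (SD 0.24) in adults and −0.014 log2 (SD 0.39) in embryos, and 7 (adult) and 17 (embryo) of them were past 0.3 log2. Relative to them, Dnmt3l probe 1 stood at 0.15 log2 in adults and 0.12 log2 in embryos, and probe 2 at −0.30 log2 in adults, farther than the SD of the neighbours, and 0.14 log2 in embryos. The Dnmt3l median stood at −0.078 log2 relative to them in adults and 0.13 log2 in embryos.

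Dnmt3a had the first probes of chromosome 12 in the files, so its 20 neighbours lay on 1 side, over 830 kb beginning with Pomc1 (Pomc, the hormone precursor gene). Their median was 0.12 log2 (SD 0.55) in adults and −0.035 log2 (SD 0.28) in embryos, and Dnmt3a stood at −0.23 (adult) and 0.19 log2 (embryo) relative to them. Dnmt3b had Commd7 to its left and, to its right, probes named Gm295 and then Mapre1 (a microtubule end-binding protein). Its 40 neighbours had medians of −0.026 (SD 0.45, adult) and 0.0056 (SD 0.28, embryo). Dnmt3b stood at 0.082 (adult) and 0.099 log2 (embryo) relative to them. Dnmt1 stood at −0.078 (adult) and −0.17 log2 (embryo) relative to its 40 neighbours (SD 0.32 and 0.36), which include the adhesion molecule gene Icam1. Dnmt2, next to the intermediate filament gene Vim, stood at 0.059 (adult) and −0.0080 log2 (embryo) relative to its own (SD of its 40 neighbours 0.34 and 0.32). Taken singly, 1 of 12 methyltransferase probes on each array lay farther from its neighbours than their SD: Dnmt3l probe 2 in adults (−0.30 against an SD of 0.24) and Dnmt1 probe 1 in embryos (−0.41 against 0.36). The share of all probes that lay so far from their own neighbours was not counted, so this count is a description only.

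**Figure D4:**
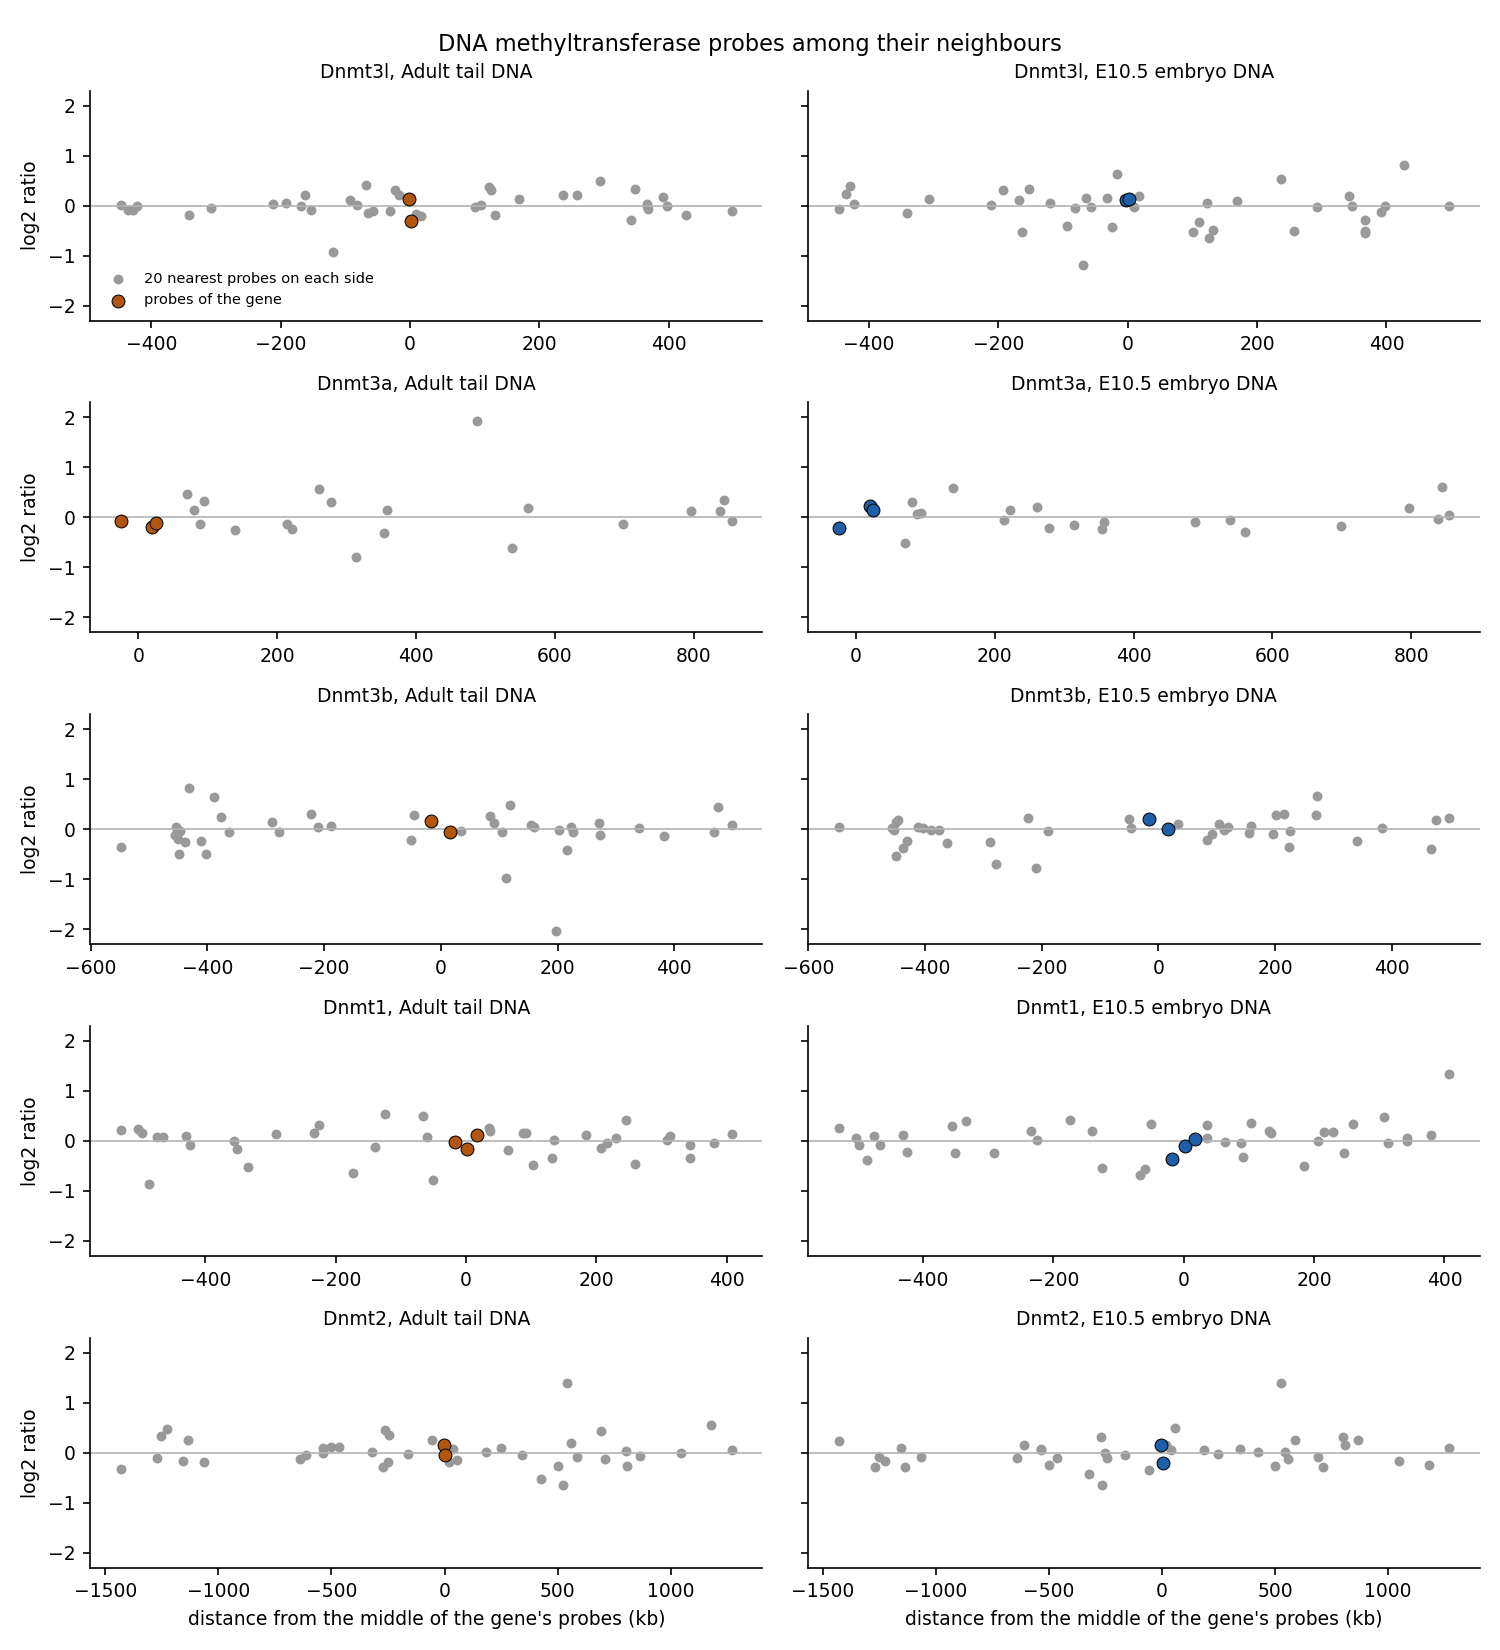
Log2 ratios of offspring over control (vertical axis) of the probes of each DNA methyltransferase gene (large coloured circles) and of the 20 nearest probes on each side (grey), by distance in kb from the middle of the gene's probes (horizontal axis), for the adult array (left) and the embryo array (right). Dnmt3a has neighbours to the right only, and the methyltransferase probes lie between the highest and lowest grey points of their panel.

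Counted by gene, 0 of the 5 methyltransferase genes had a median past 0.3 log2 on either array. Of 22707 autosomal genes on the adult array, 19.9% were past it, 2152 higher in offspring and 2374 lower. Of 22705 autosomal genes on the embryo array, 21.5% were past it, 2359 higher in offspring and 2529 lower. Both shares include genes with a single probe, while each methyltransferase gene had 2 or 3, so they are not a matched background. These shares are the background for 62 other genes of DNA methylation in 6 lists, of which 58 were measured, 55 on autosomes and 3 on X.

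The 55 autosomal genes had a median of −0.027 log2 in adults, where 2 were higher and 3 lower (5 in all, 9.09%), and of 0.025 log2 in embryos, where 5 were higher and 5 lower (10 in all, 18.2%). The medians over all autosomal genes were 0.0094 and 0.0086 log2. None of the 55 (0) was past the limit in the same direction on both arrays. Such a share was not counted over all autosomal genes, so this is a description only. On X, the methyl-CpG reader Zbtb33 (−0.59 in adults, −1.12 in embryos) and the histone H3 lysine methyltransferase Suv39h1 (−0.94 in adults, −0.58 in embryos) had medians below 0 on both arrays, as had X as a whole.

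Among 7 measured partners of maintenance and recruitment, 2 were higher in adults and 0 in embryos, and none was lower. Smarca5, the ATPase of ISWI chromatin remodellers, stood at 0.50 log2 in adults, with both probes past the limit (0.40 and 0.60), and at −0.23 in embryos. The tumour suppressor Rb1 stood at 0.37 in adults and −0.19 in embryos, where its 2 probes disagreed (−0.75 and 0.37), and the transcription factor E2f1 at −0.044 in adults and 0.24 in embryos. The list medians were −0.011 (adult) and −0.034 log2 (embryo).

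Of 6 autosomal methyl-CpG readers, 0 were past the limit in adults and 1 was higher in embryos. That gene was Mbd3, a subunit of the NuRD corepressor, whose single probe stood at −0.0034 in adults and 0.72 in embryos. The zinc-finger readers Zbtb38 (0.20 in adults, −0.036 in embryos) and Zbtb4 (0.16 in adults, −0.042 in embryos) were within the limit on both arrays, and the list medians were 0.068 (adult) and 0.056 log2 (embryo).

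Of 10 demethylation and repair genes, 2 were lower in adults and 1 was higher in embryos, with medians of −0.083 (adult) and 0.11 log2 (embryo). Gadd45g, of a stress-induced family linked to DNA demethylation, stood at −0.40 in adults and −0.11 in embryos, with 1 probe. Its relative Gadd45b, also with 1 probe, stood at −0.042 in adults and 0.70 in embryos, and the cytidine deaminase gene Apobec1 at −0.25 in adults and −0.040 in embryos. Of 12 genes of methyl donor supply, 1 was lower in adults, and 1 was higher and 3 lower in embryos, with medians of −0.072 (adult) and 0.019 log2 (embryo). Shmt2, which moves one-carbon units from serine onto folate in mitochondria, had the highest embryo value of the 55 genes, 1.14 log2 from 1 probe, against −0.28 in adults. Ahcy, which clears S-adenosylhomocysteine, stood at −0.22 in adults and −0.30 in embryos.

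Of 12 autosomal histone-modifying partners, 0 were past the limit in adults, and 2 were higher and 1 lower in embryos, with medians of 0.015 (adult) and −0.026 log2 (embryo). Trim28, a corepressor that protects imprints after fertilisation, stood at 0.092 in adults and 0.72 in embryos (1 probe), and Kdm1b, a histone H3 lysine 4 demethylase needed for maternal imprints, at −0.045 in adults and 0.45 in embryos. Nsd1, a histone H3 lysine 36 methyltransferase, stood at 0.065 in adults and −0.44 in embryos (1 probe). Of 8 measured germline and imprint guardians, 0 were past the limit in adults and 1 was lower in embryos, with medians of −0.039 (adult) and −0.034 log2 (embryo). That gene was the germline RNA helicase Ddx4, at 0.029 in adults and −0.63 in embryos, where its 2 probes gave −1.34 and 0.073. The piRNA-pathway gene Piwil2 stood at −0.17 in adults and −0.19 in embryos and the arginine methyltransferase gene Prmt5 at −0.12 in adults and −0.15 in embryos, both medians within the limit on both arrays. The 2 Piwil2 probes disagreed on both arrays (−0.40 and 0.069 in adults, −0.39 and 0.015 in embryos). The name Piwil2 lay on 2 chromosomes, and only its chromosome 14 probes were used.

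**Figure D5:**
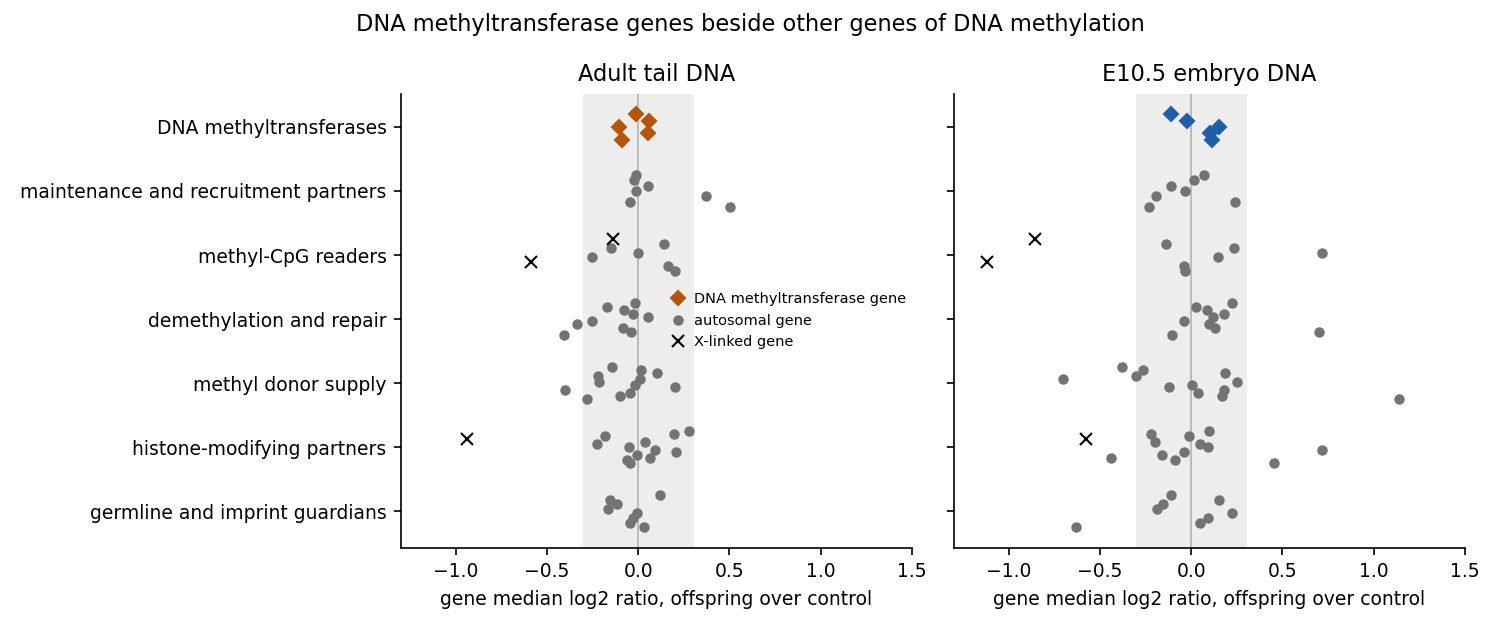
Gene median log2 ratios of offspring over control (horizontal axis) of the 5 DNA methyltransferase genes (diamonds) and of the measured genes of 6 lists of DNA methylation (grey circles, autosomal; crosses, X-linked), on the adult array (left) and the embryo array (right). The grey band marks 0.3 log2 on either side of 0, and all 5 methyltransferase genes lie inside it on both arrays.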

How the data were processed

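Genomic DNA was measured on 2 arrays, 1 per stage. Deposited spot intensity values were written by Agilent Feature Extraction 9.1.1.1, per the file headers (9.1 per the submitters' processing notes). The processed signals were background-subtracted and dye-normalized, per the file headers. The deposited log10 ratio column is Cy5 over Cy3, and the deposited log10 values of the series matrix differed from it by at most 0.0005 over 44050 spots. Their medians were −0.0032 for the adult column and 0 for the embryo column. The deposited p-value of each spot is the software's, per the file headers. The name of the genome build was not given in the sources used here.

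From these, 1030 control spots and 8 (adult) or 34 (embryo) outlier spots were left out, while 1 and 2 saturated spots were kept. The log2 ratio of offspring over control was taken from processed signals with dyes as labelled, averaged over spots, and centred on the array median (0.022 and 0.0072 log2 taken off), without loess. A gene's value is the median of its probes. With 1 array per group no test was made within a stage. Both arrays were fitted against 0 in limma (lmFit, eBayes) with Benjamini-Hochberg adjustment, tested on simulated data beforehand. The simulated arrays were independent and their planted shifts larger than the X median, so that test does not bear on shifts of the size reported here. The number of arrays limits the precision. Probe sequences are not in the array files used here, so cross-hybridisation with related genes or with pseudogenes of Dnmt3a, Dnmt3b and Dnmt3l was not checked.

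The text names the 5 methyltransferase genes with every probe and, for each list, up to 3 autosomal genes with the largest absolute mean of both arrays' medians plus its X-linked genes, and some items are not reported here. Uhrf1, Pcna, Zfp57 and Ctcfl matched no probe name. Names followed the GRCm38.p6 table, through synonyms where needed, without its coordinates. Members and lists were chosen with earlier results of these data known. Tools were R 4.3.3 with limma 3.58.1, and Python 3.11.15 with numpy 2.4.6, pandas 2.3.3 and matplotlib 3.10.9.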

Additional observations from a re-analysis of the deposited data

Results flagged for a closer look

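The gene medians of 3 methyltransferase genes lay on opposite sides of 0 on the embryo and adult arrays. Dnmt3l stood at 0.12 log2 in embryos and −0.089 log2 in adults, a difference of 0.20. Dnmt3a stood at 0.15 log2 in embryos and −0.11 log2 in adults, a difference of 0.26. Dnmt2 stood at −0.024 log2 in embryos and 0.057 log2 in adults, a difference of −0.081. With 1 array per stage these differences were not tested. Offspring carried Cy5 on the embryo array and Cy3 on the adult array, so stage and dye orientation cannot be told apart. The signs depended on the processing for Dnmt3l and Dnmt2. With mean signals Dnmt3l lay above 0 on both arrays (0.025 in adults, 0.066 in embryos). Dnmt2 changed sign on both arrays with normexp (−0.013 in adults, 0.060 in embryos) and with mean signals (−0.0024 in adults, 0.017 in embryos). Dnmt3a kept its sign on each array over all 9 alternatives.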

How the results depend on the processing

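The median of Dnmt3l ran from −0.099 to 0.025 log2 (adult) and 0.066 to 0.14 log2 (embryo) over 9 alternatives, and that of all 12 probes from −0.066 to −0.023 and 0.0097 to 0.084. The count of 1 adult probe past 0.3 log2 became 0 with the deposited ratio left uncentred (Dnmt3l probe 2 at −0.29) and 2 after subtracting the neighbouring probes (Dnmt3l probe 2 at −0.30, Dnmt3a probe 2 at −0.31). With normexp and with mean signals the adult probe past it was Dnmt3a probe 3 (−0.30 and −0.31) in place of Dnmt3l probe 2. The embryo count of 1 became 4 with normexp: Dnmt3a probe 2 (0.33), Dnmt2 probe 1 (0.31), Dnmt3b probe 1 (0.34) and Dnmt1 probe 1 (−0.36). Normexp gave an X median of −0.28 (adult) and −0.55 (embryo) and mean signals one of −0.19 (adult) and −0.63 (embryo), and adult Dnmt3a probe 3 then lay below X. With normexp limma called 39 probes (16 higher, 23 lower) in place of 0, with 0 methyltransferase probes among them. Adult Dnmt3b stood at −0.15 with normexp and −0.17 with mean signals, and embryo Dnmt2 at 0.060 with normexp, opposite in sign to the values above. Embryo Dnmt3a stood at 0.29 with normexp and 0.052 as a mean over probes. The cause was not tested. The alternative that corrects for base composition was not run, since no probe sequences were used here. No paired analysis was possible because each stage had 1 array. The dim adult array limits its ratios: methyltransferase probes had background-subtracted signals of 18.9 to 120 in offspring and 26.6 to 166 in controls there, against 117 to 301 in offspring and 61.5 to 160 in controls on the embryo array.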
